A study of Homo sapiens with 8 samples.

Results

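The aldehyde dehydrogenases are a family of NAD(P)+-dependent enzymes, and most of them oxidise a reactive aldehyde to its carboxylic acid. The family is best known in the breast for the ALDH1A enzymes that turn retinal into retinoic acid. The genes described here are 10 members with other substrates: ALDH3A2, ALDH3B1 and ALDH3B2, which act on aldehydes from lipids; ALDH6A1, ALDH7A1, ALDH4A1 and ALDH18A1, which belong to amino acid pathways; ALDH9A1, which serves carnitine synthesis; and the mitochondrial acetaldehyde enzymes ALDH2 and ALDH1B1. They were chosen by name, as the probe sets whose only gene symbol in the array annotation is one of the 10. All 10 were measured, by 24 of the 54613 probe sets tested. A probe set is a group of short probes on the array whose signals are summarised to 1 value per array. Each gene is given first by its brightest probe set, and the others serve as a check. The series measured 19775 such genes in all.

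RNA of 8 samples was hybridised to Affymetrix U133 Plus 2.0 arrays, 2 arrays in each of 4 groups. MCF-10F is a spontaneously immortalised, normal-like human breast epithelial line. trMCF clone 11 is a single ring-cloned colony of MCF-10F cells that had been transformed with a high dose of estradiol, and it forms spherical masses and no tubules in collagen. The other groups are the same clone kept for 26 days in all trans-retinoic acid (ATRA) at 1 μM or at 10 μM. ATRA is the active acid form of vitamin A. As the transformed group is 1 clone, what is particular to the clone and what comes with transformation cannot be told apart. The study's methods name cells given DMSO, the vehicle, as the control for ATRA, but the sources used here do not tie the clone arrays to those cells. Nor do they say whether replicate arrays stand for separate cultures, so a p-value measures only the spread between arrays, which may be technical. One clone array carries a disease state tag of the normal cells, against its own title, and arrays were grouped by title.

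The arrays of a group differed most in trMCF clone 11, with a root mean square gap of 0.57 on the log2 scale over all probe sets, while MCF-10F had 0.44, the 10 μM group 0.25 and the 1 μM group 0.22. The epithelial label fitted its markers, with 7 of 8 luminal genes and 4 of 5 basal genes measured over a signal of 100 on every array. The summed signal of the 5 basal markers was 14440 and 34419 in MCF-10F, 20469 and 21295 in the clone, 9475 and 10791 at 1 μM, and 7376 and 8434 at 10 μM. That of 11 fibroblast and mesenchymal markers, most of it vimentin in MCF-10F, was 5234 and 12560 in MCF-10F, 1472 and 2160 in the clone, and 711 to 769 on the ATRA arrays. The mesenchymal sum was thus highest in MCF-10F and lowest with ATRA. The basal sum was lower on every ATRA array than on any untreated one, but both clone values lay between those of MCF-10F. Of 3 leukocyte markers PTPRC was under a signal of 16 on all 8 arrays, CD3E was at 55.4 to 84.6, and CD14 was at 49.1 and 402 in MCF-10F, 149 and 108 in the clone and 436 to 661 with ATRA. The leukocyte sum was thus 119 and 469 in MCF-10F, 175 and 248 in the clone, and 504 to 738 with ATRA. Of 4 adipocyte markers ADIPOQ was under 16 on all 8 arrays and PLIN1 at 52.4 to 110, with a summed signal of 102 to 155. The sum of 4 endothelial markers, almost all of it PECAM1 where it was high, was 173 and 1142 in MCF-10F, 222 and 339 in the clone, and 660 to 1263 with ATRA. The part of these differences in the values below was not tested, and in bulk RNA fewer cells of a kind and less RNA per cell cannot be told apart.

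Levels are log2 signals, so that 1 unit is a doubling, and levels of different genes on an array are not compared. A gene is called, or said to have risen or fallen, where limma's moderated test gave an adjusted p under 0.05 (Benjamini-Hochberg over all 54613 probe sets). The study itself drew its lists by a change of at least 2-fold with p up to 0.05 and no adjustment. ALDH3A2, ALDH6A1, ALDH7A1 and ALDH3B2 stand in those lists, which were made on these arrays, so the direction found for them here is not independent evidence.

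The clearest pattern among the 10 was shared by ALDH3A2, ALDH6A1 and ALDH7A1, the enzymes for fatty aldehydes, for valine and for lysine. Each was highest on both arrays of trMCF clone 11, at 2.01, 3.55 and 2.26 times the MCF-10F level, and each was lower on all 4 ATRA arrays than on either clone array. The other 7 genes showed smaller or less even differences. Arrays that do not overlap are common with 2 in a group. In the clone 4 of the 10 genes, and 27.5% of all genes, had both arrays above both of MCF-10F. With ATRA both arrays were below both of the clone for 6 of 10 at 1 μM (30.3% of all genes) and 5 of 10 at 10 μM (24.1%). At the brightest probe sets the calls were few. In trMCF clone 11 against MCF-10F 0 of 10 genes were called, where 4.53% of all genes were. The counts were 0 of 10 for 1 μM ATRA against the clone (1.90% of all genes), 0 of 10 for 1 μM ATRA against MCF-10F (0.612%), 1 of 10 for 10 μM ATRA against the clone (7.83%), 0 of 10 for 10 μM ATRA against MCF-10F (2.56%) and 0 of 10 between the doses (0% of all genes). At an unadjusted p under 0.05 in the same limma fits the counts were 5, 5, 1, 4, 2 and 0 of 10 in that order, where 22.9%, 21.6%, 12.5%, 24.0%, 16.5% and 1.69% of all genes were under it. The gene called was ALDH3A2, which fell, where 3.89% of all genes did so. Comparisons with 10 μM used a fit of 8 arrays and the others a fit of 6, so their counts do not compare the doses.

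**Figure D1:**
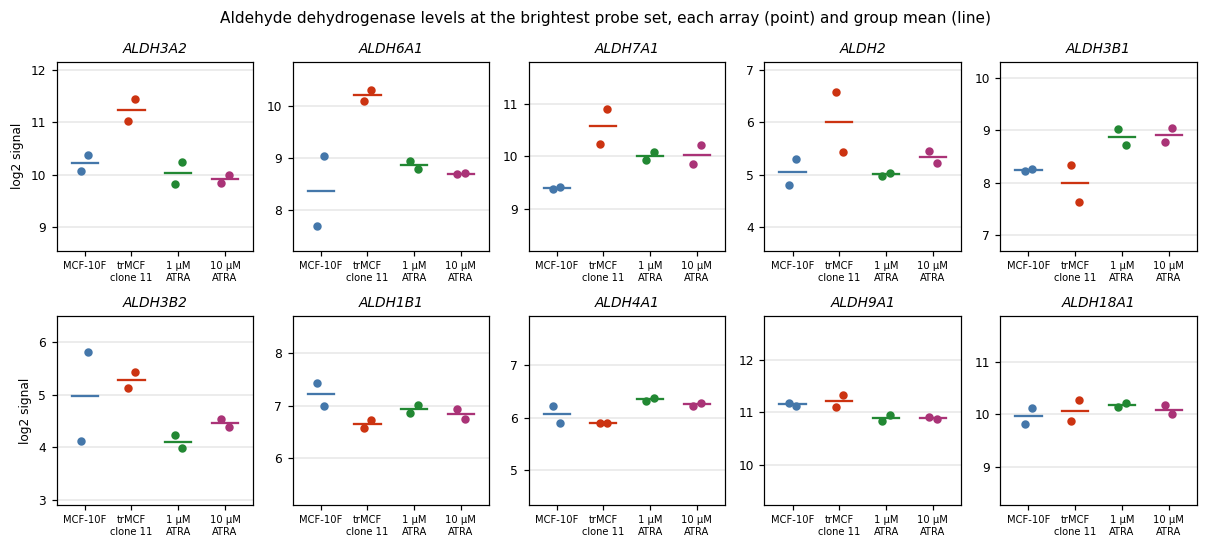
Log2 signal (vertical axis) of the 10 aldehyde dehydrogenase genes at the brightest probe set, on the 2 arrays (points) of each of 4 groups, with the group mean (line). Every panel spans the same log2 range about its own mean. ALDH3A2, ALDH6A1 and ALDH7A1 stand highest on both trMCF clone 11 arrays, ALDH3B1 is higher on the 4 ATRA arrays than on any other, and ALDH18A1 and ALDH9A1 vary little at this probe set.

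ALDH3A2 is the fatty aldehyde dehydrogenase of the endoplasmic reticulum, which oxidises long-chain aldehydes from the breakdown of sphingolipids, ether lipids and phytol. Its log2 level was 10.07 and 10.36 in MCF-10F, 11.02 and 11.44 in trMCF clone 11, 9.82 and 10.23 at 1 μM ATRA, and 9.84 and 10.00 at 10 μM. Both clone arrays lay above the other 6. At this probe set the 1 μM arrays overlapped those of MCF-10F, and the 10 μM arrays were just below them. The clone was higher than MCF-10F by 1.01 ± 0.23 (SE, n = 2 against 2, limma adjusted p = 0.081), which misses the threshold at this probe set. Both dimmer probe sets passed it, with rises of 1.34 (adjusted p = 0.0221) and 1.14 (adjusted p = 0.0326), and on them too the clone arrays did not overlap MCF-10F.

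With ATRA the gene was near its level in MCF-10F. At 10 μM it fell by 1.31 ± 0.22 (SE, adjusted p = 0.0202) against the untreated clone, to 0.405 of the clone's signal, and the other probe sets fell by 1.14 (adjusted p = 0.0108) and 1.09 (adjusted p = 0.0134). At 1 μM the difference was -1.20 ± 0.23 (SE, adjusted p = 0.0706) at the brightest probe set. The other probe sets fell by 1.10 (adjusted p = 0.0446) and 1.14 (adjusted p = 0.0456). All 3 probe sets of ALDH3A2 thus fell at 10 μM, as those of no other gene of the 10 did. The call at the brightest one was lost in a fit of the 4 arrays alone (adjusted p = 0.0635) and with signals under 16 set to 16 (adjusted p = 0.081). In both the difference was -1.31, as before. It was also lost without replicate 1 or replicate 2 of the 10 μM group, where the difference was -1.23 and -1.38. Over all 18 alternatives, the other probe sets among them, the difference was between -1.52 and -1.09. Against MCF-10F the difference at the brightest probe set was -0.19 at 1 μM (95% interval -0.77 to 0.38) and -0.30 at 10 μM (-0.80 to 0.21). The second probe set differed the other way, by 0.23 and 0.20 (adjusted p = 0.770 and 0.664), with the ATRA arrays above both of MCF-10F. The third differed by 0.004 and 0.05, with overlapping arrays.

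ALDH6A1 is the mitochondrial methylmalonate semialdehyde dehydrogenase, a late step in the breakdown of valine and thymine. Its log2 level was 7.71 and 9.03 in MCF-10F, 10.09 and 10.30 in the clone, 8.94 and 8.79 at 1 μM, and 8.70 and 8.71 at 10 μM. The MCF-10F arrays were 1.32 apart with all 4 ATRA arrays between them, while the clone arrays were 0.20 apart and above all others. The clone was higher by 1.83 ± 0.41 (SE, adjusted p = 0.0768), the largest difference of the 10 genes at the brightest probe set in that comparison.

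The 4 other ALDH6A1 probe sets were higher in the clone too, on both arrays. A rise was called on 2 of them, by 1.33 (adjusted p = 0.0446) and 1.39 (adjusted p = 0.0488), while the others differed by 1.57 (adjusted p = 0.0604) and, on a dim one at log2 levels of 3.98 to 4.90, by 0.53 (adjusted p = 0.332). The called probe set with the rise of 1.33 is of the _x_at kind, whose probes may also match other transcripts. Against the clone, ALDH6A1 differed by -1.33 ± 0.41 with the lower dose (adjusted p = 0.168) and -1.50 ± 0.38 with the higher (adjusted p = 0.0652). One probe set, the same _x_at one, fell at 10 μM, by 0.99 (adjusted p = 0.0434).

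ALDH7A1, or antiquitin, oxidises the semialdehyde formed in lysine breakdown, and also betaine aldehyde. Its log2 level was 9.38 and 9.41 in MCF-10F, 10.24 and 10.90 in the clone, 9.92 and 10.09 at 1 μM, and 9.85 and 10.21 at 10 μM. At this probe set its ATRA arrays lay between MCF-10F and the clone, overlapping neither, unlike those of the pair above at their brightest probe sets. The second probe set of ALDH3A2 had this order too, with MCF-10F at 9.65 and 9.60 and ATRA at 9.77 to 9.93. So had the third of ALDH6A1, with MCF-10F at 6.79 and 7.46 and ATRA at 7.52 to 7.65. The clone was higher than MCF-10F by 1.18 ± 0.24 (SE, adjusted p = 0.0613), and the next probe set rose by 1.23 (adjusted p = 0.0374). The third and dimmest, at 5.64 and 6.10 in MCF-10F and 6.17 and 7.54 in the clone, differed by 0.99 (adjusted p = 0.303).

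The difference of ALDH7A1 from the clone was alike at both doses, -0.57 ± 0.24 at 1 μM (adjusted p = 0.286) and -0.54 ± 0.24 at 10 μM (adjusted p = 0.260). Against MCF-10F it differed by 0.61 at 1 μM (95% interval 0.02 to 1.20, adjusted p = 0.465) and by 0.63 at 10 μM (0.07 to 1.19, adjusted p = 0.297). The second probe set differed by 0.71 and 0.69 (adjusted p = 0.277 and 0.165), while the third differed by 0.21 and 0.01, with overlapping arrays. None of these passed the threshold over all probe sets.

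Over all 24 probe sets, 5 rose in trMCF clone 11 against MCF-10F, of ALDH3A2, ALDH6A1 and ALDH7A1, where 1.56% of all probe sets did. In the fit of 6 arrays 2 fell with 1 μM ATRA, both of ALDH3A2 (0.683% of all). In that of 8 arrays 4 fell with 10 μM, 3 of ALDH3A2 and 1 of ALDH6A1 (2.98% of all). Probe sets of 1 gene read the same transcripts and are not independent. By the study's own rule of fold and unadjusted p, the clone's higher genes were ALDH3A2, ALDH6A1 and ALDH7A1, 3 of 10 where 3.24% of all genes qualified. The lower genes with ATRA were ALDH3A2 and ALDH6A1 at both doses, 2 of 10 where 3.02% of all genes qualified at 1 μM and 3.67% at 10 μM. The number of probe sets called moved with single arrays, as did the calls of the pathway genes below. In each comparison calls were gained without replicate 2 of the clone and lost without some other arrays. Each such fit leaves 1 array in a group, and the share of all probe sets in these fits is not given. The moves are therefore not read as a result about these genes.

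**Figure D2:**
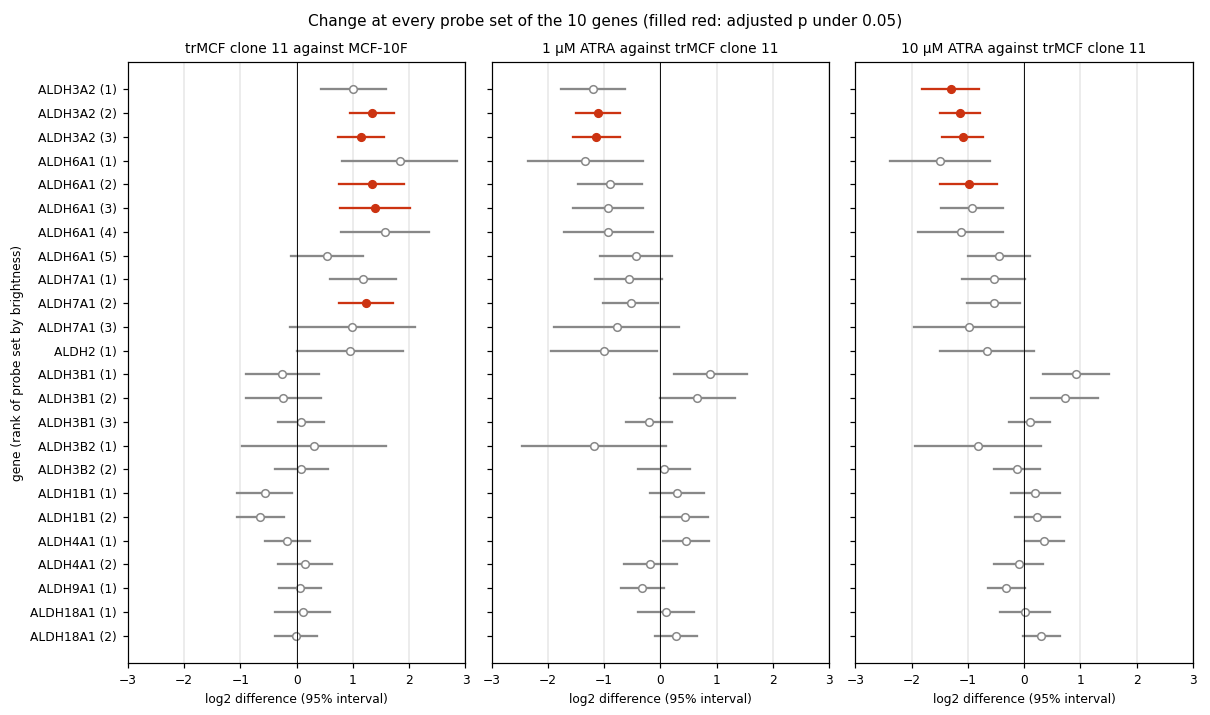
Log2 difference (horizontal axis) at each of the 24 probe sets in 3 comparisons, as a point with its 95% interval, the probe sets of a gene ranked from the brightest (1). Filled red marks an adjusted p under 0.05: 5 probe sets higher in trMCF clone 11, 2 lower with 1 μM ATRA and 4 lower with 10 μM. The probe sets of ALDH3A2, ALDH6A1 and ALDH7A1 lie to the right of 0 in the first panel and to the left in the others.

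The bases just before the transcription start are shown for the 3 genes with a probe set that rose in the clone, to put their promoters side by side. They are the 250 bases upstream of the RefSeq start in GRCh38.p14, written 5′ to 3′ along the gene. ALDH3A2 has 2 listed starts on the plus strand of chromosome 17, at chr17:19647886-19648135 and chr17:19648501-19648750. ALDH6A1 lies on the minus strand, at chr14:74084454-74084703, and ALDH7A1 on the minus strand, at chr5:126595220-126595469. Capitals mark the letters GCGTG on either strand, the core to which the aryl hydrocarbon receptor binds. That receptor switches on enzymes for foreign compounds. Its core was searched for because the study counted ALDH3A2, ALDH6A1, ALDH7A1 and ALDH3B2 among the genes of its pathway.

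ALDH3A2, first start: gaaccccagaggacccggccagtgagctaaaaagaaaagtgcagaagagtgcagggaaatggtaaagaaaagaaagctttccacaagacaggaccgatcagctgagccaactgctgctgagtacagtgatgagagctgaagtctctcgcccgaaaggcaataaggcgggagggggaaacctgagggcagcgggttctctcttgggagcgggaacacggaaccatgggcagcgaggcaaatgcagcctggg
ALDH3A2, second start: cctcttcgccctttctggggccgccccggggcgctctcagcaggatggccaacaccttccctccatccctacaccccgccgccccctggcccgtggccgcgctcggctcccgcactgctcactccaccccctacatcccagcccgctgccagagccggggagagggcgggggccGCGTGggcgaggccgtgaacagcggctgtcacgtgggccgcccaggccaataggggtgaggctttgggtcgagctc
ALDH6A1: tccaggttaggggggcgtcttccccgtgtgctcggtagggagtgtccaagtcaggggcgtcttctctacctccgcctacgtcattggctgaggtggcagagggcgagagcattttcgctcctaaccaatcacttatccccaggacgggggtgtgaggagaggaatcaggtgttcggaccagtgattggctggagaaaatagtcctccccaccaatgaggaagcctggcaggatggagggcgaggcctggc
ALDH7A1: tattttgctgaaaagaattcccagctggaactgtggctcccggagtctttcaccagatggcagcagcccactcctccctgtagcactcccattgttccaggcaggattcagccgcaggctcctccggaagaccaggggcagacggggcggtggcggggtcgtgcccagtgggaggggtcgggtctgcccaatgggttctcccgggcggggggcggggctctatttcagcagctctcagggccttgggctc

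GCGTG occurred once in these windows, 76 bases before the second ALDH3A2 start, and 32.2% of 35116 promoter windows of that length hold it. The retinoic acid receptor half-site AGGTCA (12.1% of windows) and the antioxidant response core TGACNNNGC (10.9% of windows), also searched for on both strands, occurred in none of the 4. In the 8 genes with a window in the table, AGGTCA was found in ALDH4A1 only, 2 times before the first of its 2 listed starts. ALDH2 and ALDH3B2 had no window. A match is a run of letters and not a measured binding site.

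ALDH2 and ALDH1B1, paralogs in the mitochondrion, oxidise acetaldehyde and lipid peroxidation aldehydes. ALDH2 was at log2 levels of 4.81 and 5.29 in MCF-10F, 6.57 and 5.43 in the clone, 4.97 and 5.04 at 1 μM, and 5.46 and 5.23 at 10 μM. One clone array stood 1.14 above the other, and that other was below the higher of the 10 μM arrays, so the difference of the means, 0.95 ± 0.38 (SE, adjusted p = 0.249), rests on replicate 1 of the clone. Without that array the difference was 0.38 (adjusted p = 0.478), and without replicate 2 of the clone it was 1.52 (adjusted p = 0.0175).

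ALDH1B1 had the reverse order, at 7.43 and 6.99 in MCF-10F, 6.56 and 6.72 in the clone, 6.85 and 7.01 at 1 μM, and 6.94 and 6.74 at 10 μM. Both clone arrays were the lowest of the 8. The difference from MCF-10F was -0.57 ± 0.20 (SE, adjusted p = 0.183) and -0.65 at the second probe set (adjusted p = 0.108). The brightest probe set is of the _x_at kind, whose probes may also match other transcripts, and the second is not. With ATRA the means were higher by 0.29 at 1 μM and 0.20 at 10 μM, with adjusted p of 0.492 and 0.658.

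ALDH3B1 and ALDH3B2 are close paralogs that oxidise medium- and long-chain aldehydes from lipid peroxidation, at membranes and at lipid droplets. As they are alike in sequence, a signal of one may include the other. ALDH3B1 was at log2 levels of 8.23 and 8.26 in MCF-10F, 8.35 and 7.63 in the clone, 9.03 and 8.72 at 1 μM, and 8.77 and 9.05 at 10 μM. The 4 ATRA arrays were the highest, above both untreated groups, which overlapped. ALDH3B1 was higher than in the clone by 0.88 ± 0.26 at 1 μM (SE, adjusted p = 0.156), and at 10 μM by 0.92 ± 0.25 (adjusted p = 0.0812). The second probe set differed by 0.66 and 0.72 in the same direction (adjusted p = 0.275 and 0.156), and the third by -0.21 and 0.10. ALDH3B1 was the gene of the 10 with the largest difference upward with ATRA, at both doses.

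ALDH3B2 was dim, with log2 levels of 4.13 and 5.81 in MCF-10F, 5.13 and 5.43 in the clone, 4.23 and 3.98 at 1 μM, and 4.54 and 4.38 at 10 μM. The 4 ATRA arrays were below both clone arrays, while 1 MCF-10F array lay among the ATRA arrays and the other above the clone. The difference from the clone was -1.18 ± 0.52 at 1 μM (SE, adjusted p = 0.303) and -0.82 ± 0.47 at 10 μM (adjusted p = 0.411). The second probe set was under a signal of 16 on every array. A direction of ALDH3B2 between MCF-10F and the clone cannot be given, as their arrays overlap.

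ALDH4A1 and ALDH18A1 stand at opposite ends of proline metabolism: ALDH4A1 oxidises the product of proline breakdown to glutamate, and ALDH18A1 makes the same intermediate from glutamate for the synthesis of proline and ornithine. ALDH4A1 was at log2 levels of 6.22 and 5.90 in MCF-10F, 5.90 and 5.89 in the clone, 6.32 and 6.38 at 1 μM, and 6.23 and 6.28 at 10 μM. It was higher with ATRA on all 4 arrays, by 0.45 ± 0.16 at 1 μM (SE, adjusted p = 0.221) and 0.36 ± 0.15 at 10 μM (adjusted p = 0.231), but the second probe set differed by -0.18 and -0.10. The 2 probe sets of ALDH4A1 thus disagree in sign.

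At its brightest probe set ALDH18A1 varied little, at 9.82 and 10.12 in MCF-10F, 9.87 and 10.27 in the clone, 10.13 and 10.22 at 1 μM, and 10.18 and 10.00 at 10 μM. All 4 groups overlapped at this probe set, except that both 1 μM arrays were above both of MCF-10F. Its difference between the clone and MCF-10F was 0.11, with a 95% interval of -0.39 to 0.60, which leaves out a change of 1 log2 unit. At the second probe set the 4 ATRA arrays, at 9.25 to 9.39, were above the 4 untreated ones, at 8.96 to 9.12. There the difference from the clone was 0.28 at 1 μM (adjusted p = 0.402) and 0.30 at 10 μM (adjusted p = 0.285).

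ALDH9A1, which oxidises the aldehyde precursor of carnitine and aminoaldehydes from polyamines, has a single probe set. It was at log2 levels of 11.19 and 11.12 in MCF-10F, 11.10 and 11.33 in the clone, 10.83 and 10.95 at 1 μM, and 10.92 and 10.87 at 10 μM. The 4 ATRA arrays were the lowest, though by little. The difference from the clone was -0.32 ± 0.15 at 1 μM (SE, adjusted p = 0.344) and -0.32 ± 0.14 at 10 μM (adjusted p = 0.269), and between the clone and MCF-10F it was 0.06 (95% interval -0.32 to 0.44).

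Between the doses no gene of the 10 was told apart. The differences of 10 μM from 1 μM ran from -0.16 (ALDH6A1, 95% interval -1.05 to 0.72) to 0.36 (ALDH3B2, -0.76 to 1.47), with an adjusted p of 1 for each. For ALDH3A2 the difference was -0.11 (-0.61 to 0.40) and for ALDH7A1 0.02 (-0.54 to 0.58). The median size of the difference was 0.0944 for the 10 genes and 0.100 for all genes. In the other comparisons these medians were 0.442 and 0.249 for the clone against MCF-10F, 0.725 and 0.246 for 1 μM against the clone, 0.599 and 0.214 for 10 μM against the clone, 0.284 and 0.169 for 1 μM against MCF-10F, and 0.315 and 0.187 for 10 μM against MCF-10F. The 10 genes include several that the study picked on these arrays, so these medians are a description.

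The genes next to these enzymes in their pathways were read from 7 lists with 96 measured genes, none in more than 1 list. Of the 96, 8 were called in the clone against MCF-10F, 4 of them higher, where 4.53% of all genes were called. With 1 μM ATRA against the clone 6 were called, 4 of them higher (1.90% of all genes), and with 10 μM 11 were, 4 of them higher (7.83%). Against MCF-10F, 0 were called at 1 μM (0.612% of all genes) and 3 at 10 μM (2.56%). At 1 μM 24 of the 96 had an unadjusted p under 0.05 in limma, as had 12.5% of all genes. Between the doses 0 were called, and 6 had an unadjusted p under 0.05, as had 1.69% of all genes. These calls too moved with single arrays, and the fall of ARG2 at 10 μM was the one that held without each array in turn. Of the 8 called in the clone, 2 (AOX1, ARG2) remained without replicate 1 of MCF-10F, 3 (AOX1, ARG2, BCKDHA) without replicate 2 of MCF-10F, 4 (ALDH1A3, AOX1, ARG2, GLUD1) without replicate 1 of the clone and 0 without either 1 μM array. Of the 6 at 1 μM, 3 (ALDH1A3, AOX1, ARG2) remained without either MCF-10F array or replicate 1 of the clone, and 0 without either 1 μM array. Of the 11 at 10 μM, 7 remained without replicate 1 of the clone, 4 (ADH5, ALDH1A3, ARG2, PAOX) without either 1 μM array and 1 (ARG2) without either 10 μM array. Of the 3 against MCF-10F at 10 μM, AOX1 remained without any 1 array but replicate 2 of the 10 μM group.

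Around ALDH6A1, 22 of 23 genes of branched-chain amino acid breakdown were measured. In the clone 2 rose, BCAT2 by 1.13 (adjusted p = 0.0306) and BCKDHA by 1.71 (adjusted p = 0.0381), and HSD17B10 fell by 1.03 (adjusted p = 0.0359). BCAT2 is the mitochondrial aminotransferase of the first step, BCKDHA a subunit of the dehydrogenase of the second, and HSD17B10 a later dehydrogenase of the isoleucine branch. The list's median difference was 0.19, beside 0.06 for all genes. BCKDHA was at log2 levels of 7.81 and 8.63 in MCF-10F, 9.97 and 9.88 in the clone, 8.64 and 8.56 at 1 μM, and 8.46 and 8.63 at 10 μM. At 10 μM it fell by 1.38 against the clone (adjusted p = 0.0269), the gene of this list called at that dose, and at 1 μM 0 of 22 were called (8 at an unadjusted p under 0.05 in limma). The list's median difference with ATRA was -0.12 at 1 μM and -0.06 at 10 μM.

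Around ALDH18A1 and ALDH4A1, 11 of 14 proline and ornithine genes were measured. GLUD1, which interconverts glutamate and 2-oxoglutarate, rose in the clone by 1.19 (adjusted p = 0.0221), and ARG2, the mitochondrial arginase, by 2.38 (adjusted p = 0.00717). ARG2 was at 6.84 and 7.09 in MCF-10F, 9.23 and 9.45 in the clone, 8.03 and 7.84 at 1 μM, and 7.23 and 7.27 at 10 μM. Its groups did not overlap, and with 1 μM ATRA it fell by 1.40 (adjusted p = 0.0335), with 10 μM it fell by 2.09 (adjusted p = 0.00239). At 10 μM GLUD1 fell by 0.81 (adjusted p = 0.0186) and P4HA1, a prolyl hydroxylase subunit that acts on collagen, fell by 1.14 (adjusted p = 0.0348). ARG2 stands in the study's lists from these arrays.

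Around ALDH7A1, 9 of 10 genes of lysine and choline oxidation were measured, with 0 called in the clone against MCF-10F (2 at an unadjusted p under 0.05 in limma). AASS, which performs the first steps of lysine breakdown, rose by 1.09 at 1 μM (adjusted p = 0.0368), from 5.52 and 5.47 in the clone to 6.52 and 6.66, and was at 6.00 and 6.08 at 10 μM. ALDH7A1 itself was lower on those ATRA arrays than in the clone.

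Around ALDH9A1, all 13 genes of carnitine, polyamines and amines were measured. ODC1, the first enzyme of polyamine synthesis, fell by 1.90 in the clone (adjusted p = 0.0408) and rose at 10 μM by 1.43 (adjusted p = 0.0364). PAOX, a polyamine oxidase, rose by 1.69 with the lower dose (adjusted p = 0.0468) and 1.66 with the higher (adjusted p = 0.0136). MAOA, a monoamine oxidase that makes aldehydes, fell by 2.38 at 10 μM (adjusted p = 0.0400). MAOA was at 7.33 and 8.33 in MCF-10F, 9.59 and 8.17 in the clone, 6.34 and 5.83 at 1 μM, and 6.29 and 6.70 at 10 μM. All 4 ATRA arrays of MAOA were thus below the other 4.

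Around ALDH3A2 and the ALDH3B genes, 12 of 14 genes of fatty aldehyde and sphingolipid breakdown were measured. In the clone against MCF-10F 0 were called (4 at an unadjusted p under 0.05 in limma), and so it was for 1 μM against the clone (2 at an unadjusted p under 0.05). At 10 μM SGPP2, a sphingosine phosphate phosphatase, fell by 2.99 (adjusted p = 0.0205) and PHYH, which starts the oxidation of phytanic acid, rose by 0.71 (adjusted p = 0.0312). SGPP2 was at 7.65 and 9.47 in MCF-10F, 10.27 and 10.16 in the clone, 7.98 and 7.86 at 1 μM, and 7.18 and 7.27 at 10 μM. Against MCF-10F at 10 μM, PHYH was higher by 0.84 (adjusted p = 0.0340) and CYP4F11, a fatty acid hydroxylase, by 0.94 (adjusted p = 0.0300). The list's median difference from the clone was 0.31 at 1 μM and 0.21 at 10 μM, where ALDH3A2 was lower.

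**Figure D3:**
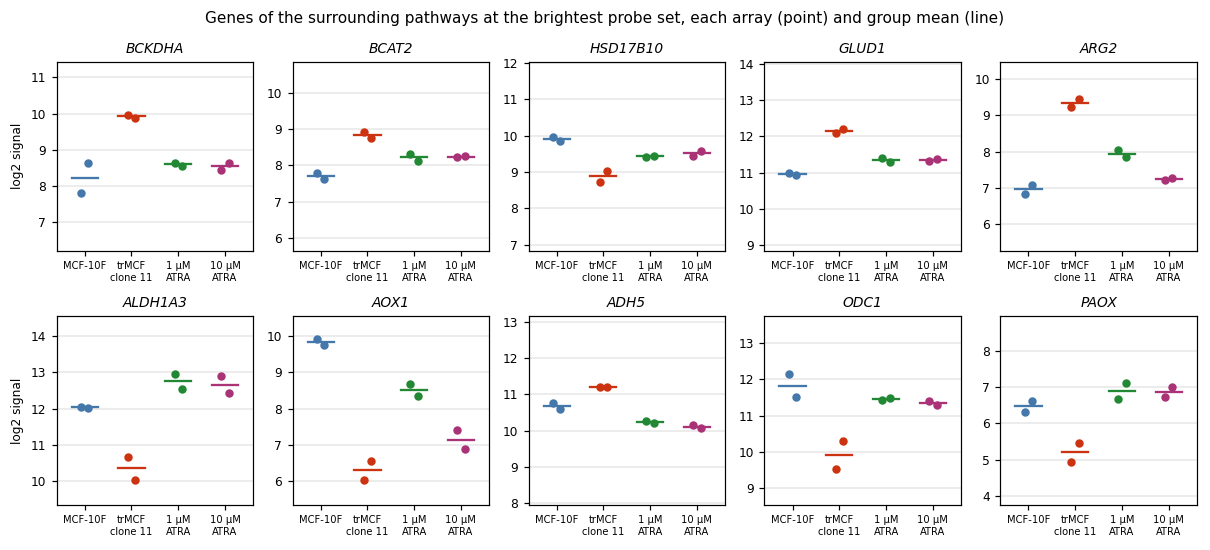
Log2 signal (vertical axis) of 10 genes from the surrounding pathways, on the 2 arrays (points) of each group, with the group mean (line). Every panel spans the same log2 range. BCKDHA, BCAT2, GLUD1, ARG2 and ADH5 are highest in trMCF clone 11, and HSD17B10, ALDH1A3, AOX1, ODC1 and PAOX are lowest there.

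Around ALDH2 and ALDH1B1, 20 of 22 genes of alcohol and aldehyde reduction were measured. AOX1, an aldehyde oxidase that needs no NAD, fell by 3.54 in the clone (adjusted p = 0.0059). It was at 9.93 and 9.76 in MCF-10F, 6.04 and 6.57 in the clone, 8.69 and 8.35 at 1 μM, and 7.41 and 6.88 at 10 μM. It rose at 1 μM by 2.21 (adjusted p = 0.0249) and at 10 μM its difference from MCF-10F was -2.70 (adjusted p = 0.00502). ADH5, which oxidises the glutathione adduct of formaldehyde, fell by 0.97 with 1 μM ATRA (adjusted p = 0.0446), and with 10 μM it fell by 1.09 (adjusted p = 0.00821). AOX1 also stands in the study's lists.

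Of the 9 other family genes, including the retinal enzymes, ALDH1A3 was the one called in any comparison. It fell by 1.68 in the clone (adjusted p = 0.0340). Its rise over the clone was 2.39 with the lower dose (adjusted p = 0.0259) and 2.31 with the higher (adjusted p = 0.00735). ALDH1A3, a retinal dehydrogenase, thus ran opposite to ALDH3A2, ALDH6A1 and ALDH7A1 over these groups, and it too is named in the study's lists.

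ALDH6A1 had the widest range of group means of the 10, and the genes most like it over the 8 arrays were found by the root mean square difference of mean-centred log2 levels. They were ZNF277 (0.115), GSDMB (0.154), BCKDHA (0.163), CD82 (0.185) and KLHL36 (0.199), where the median over all genes was 0.780. BCKDHA is also in the valine list above. ZNF277 was at 8.83 and 9.88 in MCF-10F, 11.08 and 11.18 in the clone, 9.99 and 9.79 at 1 μM, and 9.91 and 9.83 at 10 μM. It shared with ALDH6A1 the gap between the MCF-10F arrays, as did GSDMB (5.48 and 6.27), CD82 (6.80 and 8.46) and KLHL36 (10.31 and 11.28). As these genes were chosen for their likeness on the same 8 arrays, the shared gap follows from the choice. Among the 10 enzymes the nearest were ALDH3A2 (0.436), ALDH7A1 (0.512) and ALDH2 (0.545).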

How the data were processed

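RNA from 8 samples of the MCF-10F model was hybridised to 1-colour arrays, 2 in each group by title. The authors summarised and scaled the probes before deposit, so the deposited values are 1 linear signal intensity for each probe set and array. MAS 5.0 global scaling and Iterative Plier 16 are both named, and the sources used here do not say which of them was used for these values. How it was done bears most on dim probe sets. The array number, 2 a group, limits the precision.

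The log2 of each signal was used as it stood. The table has 54675 probe sets, of which the 62 control ones did not enter. In the annotation 41091 of the rest name 1 gene, 1801 several and 11721 none. Groups were compared with limma 3.58.1 (R 4.3.3) on all 54613 probe sets, with 1 mean per group, Benjamini-Hochberg adjustment and 95% intervals. MCF-10F, the clone and 1 μM ATRA shared a fit of 6 arrays, and comparisons with 10 μM one of all 8. Both ATRA groups were set against the same clone arrays. The script was tested on simulated data. The genes and pathway lists were chosen with earlier results of these data known. From each list up to 3 genes per comparison were named, those with the smallest p among the called whose arrays did not overlap, and for the gene with the widest range of group means the 5 genes and 3 members most like it. Promoters are from RefSeq, with 8 of 10 genes matched. Alternatives were other fits, normalization, filters, priors, a replicate block and each array left out.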

Additional observations from a re-analysis of the deposited data

How the results depend on the processing

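Only 1 of the 60 differences of the 10 genes was called, ALDH3A2 at 10 μM against the clone, and it kept its sign under its 18 alternatives. The other differences had no call to lose. Many alternatives change only the spread, the threshold or the arrays of other groups. They leave a difference as it was, so its sign could not turn there. Of 1014 recomputed differences, 924 kept their direction and side of the threshold, 39 passed it newly, 4 lost it, all of ALDH3A2 at 10 μM, and 47 of uncalled genes turned in sign. The counts of genes called did move. Except for the study's rule, they are given without the share of all genes under the same setting and are not read as a result about these genes. In the clone against MCF-10F, where the count was 0, it was 3 in a fit of all 8 arrays, 2 with the mean of a gene's probe sets and 3 by the study's rule, and from 0 to 2 with each array left out. For 1 μM against the clone, also 0, it was 1 with the 4 arrays alone (ALDH6A1), 1 with all 8 arrays (ALDH3A2), 1 with the mean of probe sets and 2 by the study's rule, and from 0 to 1 with an array left out. For 10 μM against the clone, 1 in the fit reported, it was 0 with signals under 16 set to 16, 2 with the mean of probe sets and 2 by the study's rule, and from 0 to 3 with an array left out; the 4 arrays alone called ALDH6A1 in place of ALDH3A2. Against MCF-10F at 10 μM it ran from 0 to 1, where ALDH3B2 was called without MCF-10F replicate 1.

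Counts of probe sets, and list counts with an array left out, were added after seeing the data. Of the 24 probe sets, those called in the clone (5) were 0 with the 4 arrays alone, 9 with all 8, 2 with a trended, robust prior and 0 with the floor of 16, and from 0 to 9 with an array left out. At 1 μM (2) they were 1 with the 4 arrays alone, 1 after quantile normalization, 0 with the other prior and 0 with the floor, and from 0 to 4 with an array left out. At 10 μM (4) they were 1 with the 4 arrays alone, 2 with the floor, and from 0 to 8 with an array left out. These counts are given without the share of all probe sets under the same setting and are not read as a result about these genes. The cause was not tested.

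With the replicate block the counts of genes were 0, 0, 0, 1, 0 and 0, as without it, while the probe sets called were 2 in the clone, 0 at 1 μM and 3 at 10 μM. These too are given without the share of all in that fit. Same-numbered arrays deviated together weakly, with correlations from -0.056 to 0.351 between groups, so the numbers were not taken as pairs. Dim probe sets, such as those of ALDH3B2 and ALDH2, are limited by signal over background, which could not be recomputed.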
